A study of Mus musculus with 10 samples.

Results

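Nuclear receptors are transcription factors that bind DNA and, in many cases, a small lipid-soluble ligand. The 44 genes described here are receptor genes of the families for thyroid hormone, retinoic acid, vitamin D, oxysterols, fatty acids, steroids and their orphan relatives. They were found by Ensembl identifier among the 40620 genes of the count table, and all 44 were also in the RPKM table. RPKM is the number of reads per kilobase of gene length, scaled to the depth of the library. The data are RNA-seq libraries of MC3T3-E1, a mouse calvarial preosteoblast line, at 5 stages with 2 replicates each, named A and B. Subconfluent and confluent cells were kept in growth medium, αMEM with iFBS. Cells of the 24 h, 14 d and 21 d stages were given differentiation medium made of αMEM, iFBS and penicillin-streptomycin, in which β-glycerophosphate was at 10 mM and ascorbic acid at 50 µg/ml. The labels name no added hormone or other receptor ligand, and all 10 samples come from 1 cell line.

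In the classical scheme a nuclear receptor switches genes on or off by exchanging corepressors for coactivators when its ligand binds. Receptors for thyroid hormone, retinoic acid, vitamin D, oxysterols and fatty acids bind DNA as dimers with a retinoid X receptor (RXR), whereas steroid receptors are held by chaperones and act mostly as pairs of themselves. Bone is a target of vitamin D, thyroid hormone, estrogen, glucocorticoids and retinoids, and osteoblasts are known to respond to each of them.

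Total counts ran from 44736156 to 162939333 per sample. The 24 h replicates stood further apart than the others: the SD of the log2 ratio of A to B over 16133 genes was 0.67 at 24 h and 0.28 to 0.32 at the other stages, and over 25 receptor genes it was 0.31 against 0.11 to 0.27. At 24 h replicate A was the lower one for 18 of these 25 receptors. Subconfluent, confluent and 24 h libraries carry one pair of index sequences and 14 d and 21 d libraries another, so a difference between the 14 d or 21 d stage and an earlier one cannot be told apart from a difference between these sets of libraries. All 8 osteoblast markers examined passed 1 RPKM in at least 1 sample. Phex did so at 14 d and 21 d alone, and Dmp1 lay below 1 RPKM in confluent and 24 h cells. The osteoblast list summed to 5612 RPKM in subconfluent cells, 6505 in confluent cells, 6278 at 24 h, 15216 at 14 d and 8796 at 21 d. Its sum was thus highest at 14 d, and by stage mean Dmp1 alone was higher at 21 d than at 14 d. The 7 adipocyte markers summed to between 0.039 and 1.09 RPKM per sample, with 6 of the 7 below 0.1 RPKM at every stage, the 5 endothelial markers summed to at most 0.107 RPKM. Of 8 macrophage and osteoclast markers 3 passed 1 RPKM (Ctsk, Itgb3 and Csf1r), 4 stayed below 0.1 RPKM, and Ptprc and Calcr, which mark hematopoietic cells and osteoclasts, were at 0 in all samples. Summed over the list, subconfluent cells had 82.4 RPKM and the 21 d stage 181 RPKM, with samples from 82.2 to 187 RPKM, of which Ctsk made up the greater part. Of 5 chondrocyte markers 3 passed 1 RPKM (Sox9, Col2a1 and, at 21 d, Col10a1 with 1.67 and 5.88 RPKM), and Acan and Matn1 stayed below 0.1 RPKM. This list summed to 175 RPKM in subconfluent cells, 54.3 at 24 h, 238 at 14 d and 115 at 21 d, with samples from 45.7 to 241 RPKM. The part of both lists in the results was not tested.

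A minority of the receptor genes made up the expressed set. At a mean above 1 RPKM, 19 of the 44 were expressed in subconfluent, confluent and 24 h cells and 21 at 14 d and 21 d, that is 43.2% and 47.7%. Of all genes, 37.9% to 38.6% passed the same level. The 2 genes that joined at 14 d were Nr1h3, which encodes the oxysterol receptor LXR alpha, and Rora, an orphan receptor that activates genes with ROR elements. A further 5 stayed between 0.1 and 1 RPKM at their highest stage (Esr1, Esr2, Nr1h4, Nr4a3 and Nr6a1). Summed over all 44 genes, the level was 264 RPKM in subconfluent, 329 in confluent, 285 at 24 h, 294 at 14 d and 323 at 21 d cells. The replicates A and B summed to 318 and 339 in confluent cells and to 260 and 309 at 24 h. RPKM lacks the scaling between libraries that the test below uses. In that test the median log2 fold change of the 28 receptors tested was 0.21 in 14 d against confluent cells.

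**Figure D1:**
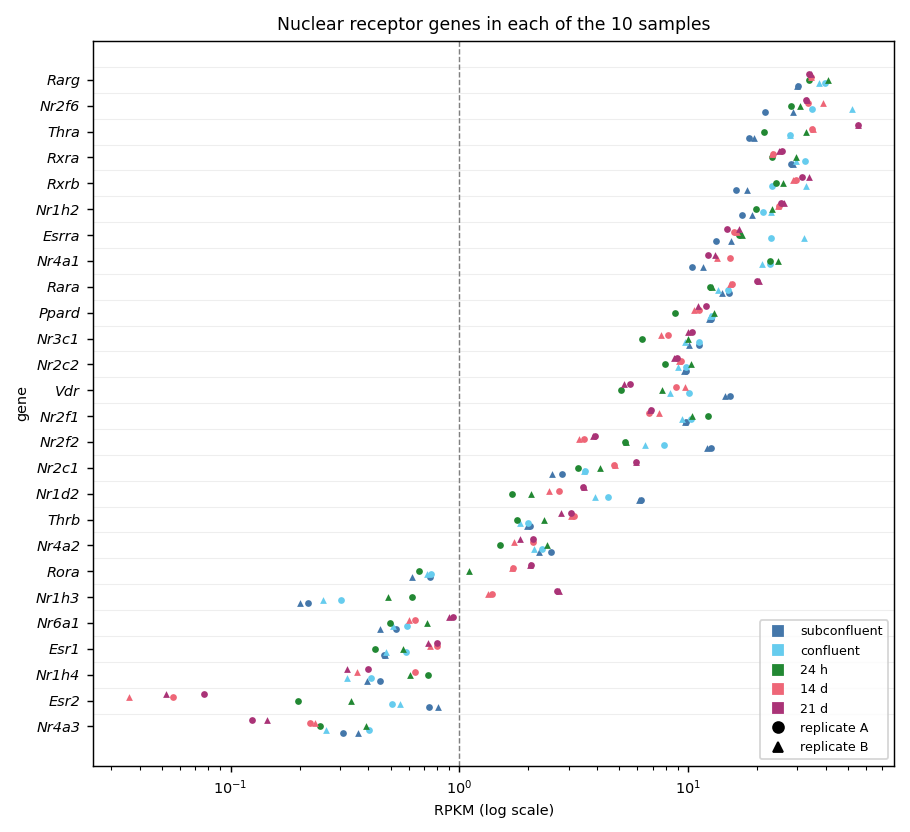
RPKM (log axis) of the 26 receptor genes with a stage mean above 0.1 RPKM, in each of the 10 samples; colour marks the stage and shape the replicate, and the dashed line marks 1 RPKM. Rarg, Nr2f6 and Thra stand highest, Nr1h3 and Rora cross 1 RPKM at the late stages, and Esr2 moves down from 0.737 and 0.807 RPKM in subconfluent cells to below 0.1 RPKM at 14 d and 21 d.

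The remaining 18 receptors stayed below 0.1 RPKM at every stage, with at most 23 counts in any sample. They include the xenobiotic receptors Nr1i2 and Nr1i3, the hepatic and intestinal factors Hnf4a and Hnf4g, the neural and retinal receptors Nr2e1 and Nr2e3, the steroidogenic factors Nr5a1 and Nr5a2, and Nr0b1 and Nr0b2, which lack a DNA-binding domain. The others are isotypes whose relatives were expressed: Rarb, Rxrg, Rorb, Ppara, Esrrb, Esrrg, the mineralocorticoid receptor Nr3c2 and the progesterone receptor Pgr. Nr1i2, Nr2e3, Esrrg and Nr0b1 had no count in any of the 10 samples, which allows a pooled level of up to 0.00245 RPKM at 3 counts, for Nr0b1, and less for the longer genes. This limit covers counting error only.

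The most abundant receptors over the 10 samples were Rarg, Nr2f6, Thra, Rxra and Rxrb. In subconfluent cells Rarg ranked first, with Rxra the second, and at 21 d Thra ranked first ahead of Rarg, with Rxra in rank 6. Nr2f6, an orphan receptor of the COUP-TF family, measured 21.7 and 28.7 RPKM in subconfluent cells, 34.9 and 52.2 in confluent cells, 28.1 and 30.7 at 24 h, 33.5 and 39.0 at 14 d and 32.6 and 33.0 at 21 d. Its confluent replicates lay further apart than those of any other stage, and no comparison of it passed the test. Of its exon bases 54.4% overlap Ocel1 on the opposite strand, and since the sources used here do not state whether counting used strand, its level is uncertain.

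To ask which receptors changed as the cells matured, counts were tested with edgeR's quasi-likelihood test and Benjamini-Hochberg adjustment over 20808 genes. The low-count filter kept 28 receptors, and the 16 left out had at most 9 counts in any sample. Over the 5 stages, 18 of the 28 had an adjusted p under 0.05, beside 48.9% of all genes tested, and 11 of them also spanned more than 2-fold, beside 30.2% of all genes. Nothing in the labels says whether replicates A and B came from separate cultures. The p-values thus set each stage difference against the spread between these samples, which may be technical. That spread was estimated from all 10 samples, so the 24 h pair enters every comparison. In bulk RNA a lower level can come from fewer cells of a type or from less RNA per cell, and these cannot be told apart.

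Between the ends of the series, 21 d against subconfluent, 18 receptors changed, where 50.7% of all genes were called. Of these, 12 rose (27.3% of all genes rose) and 6 fell (23.5% of all genes fell). The median log2 fold change (log2FC) was 0.28 over the 28 receptors and 0.04 over all genes. The largest rises were those of Nr1h3 (13.9-fold), Rora (3.25-fold), Thra (3.17-fold), Nr2c1 (2.40-fold), Rxrb (2.07-fold) and Nr6a1 (2.04-fold). Smaller rises were found for Esr1, Thrb, Nr1h2, Rara, Nr4a1 and Rarg. Esr2 fell most (11.2-fold), followed by Nr2f2 (2.94-fold), Vdr (2.54-fold), Nr4a3 (2.29-fold), Nr1d2 (1.62-fold) and Nr2f1 (1.31-fold). Past 2-fold there were 10 receptors, beside 27.6% of all genes. The calls for Rarg, Nr4a1, Nr2f1 and Nr4a3 were lost when single libraries of the stages compared were left out. They were kept in 13, 13, 9 and 19 of 21 alternative fits, and those for Rarg, Nr4a1 and Nr2f1 were also lost with no filter on low counts.

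**Figure D2:**
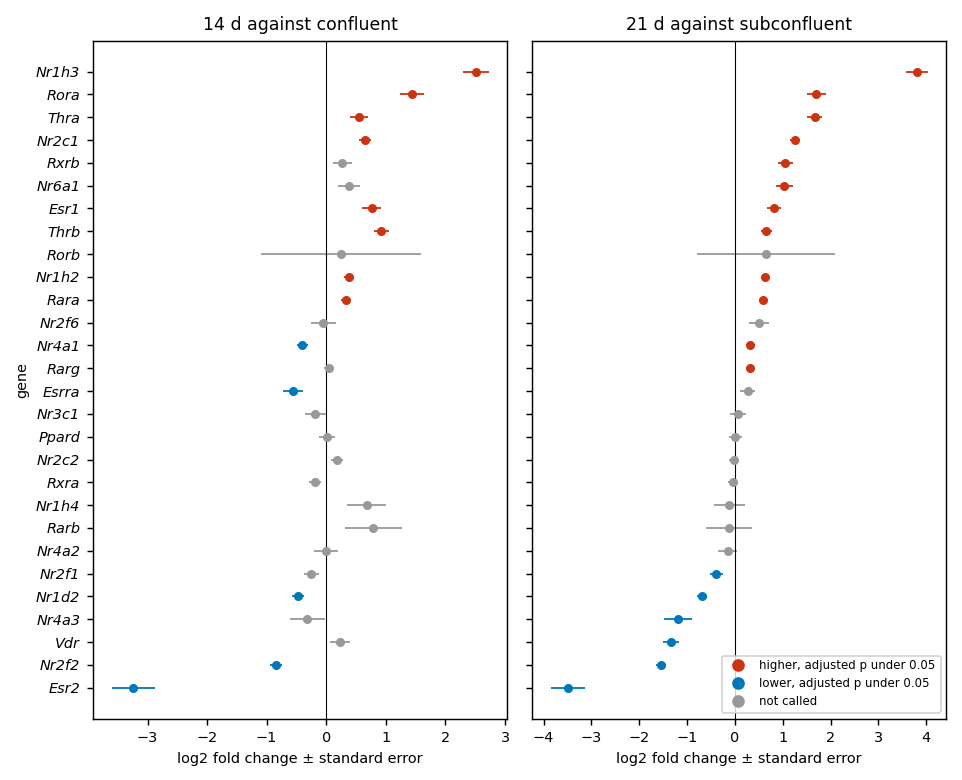
Log2 fold change, log2FC (point) and standard error (bar) of the 28 tested receptors in 14 d against confluent and in 21 d against subconfluent cells, with adjusted p under 0.05 in red (higher) or blue (lower). Nr1h3 stands furthest to the right in both panels (2.51 and 3.80) and Esr2 furthest to the left (-3.24 and -3.49).

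The 250 bases before the RefSeq start of the 2 receptors that rose most and the 2 that fell most between these ends are printed so that the genes can be placed. They are given 5′ to 3′ on the gene's strand in build GRCm38.p6, at chr2:91195117-91195366 (minus strand) for Nr1h3, chr9:68653536-68653785 (plus strand) for Rora, chr12:76177260-76177509 (minus strand) for Esr2 and chr7:70366747-70366996 (minus strand) for Nr2f2. Capitals mark a match to one of the motifs named after them.
Nr1h3: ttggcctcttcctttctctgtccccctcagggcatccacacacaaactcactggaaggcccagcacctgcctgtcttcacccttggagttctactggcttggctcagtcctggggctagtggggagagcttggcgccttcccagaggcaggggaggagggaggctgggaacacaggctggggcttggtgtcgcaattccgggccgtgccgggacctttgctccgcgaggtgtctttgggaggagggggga
Rora: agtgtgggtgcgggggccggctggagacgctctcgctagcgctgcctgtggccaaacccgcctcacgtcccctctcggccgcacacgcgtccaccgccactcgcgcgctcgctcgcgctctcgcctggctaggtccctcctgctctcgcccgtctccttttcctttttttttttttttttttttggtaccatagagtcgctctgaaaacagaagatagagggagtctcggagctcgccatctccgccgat
Esr2: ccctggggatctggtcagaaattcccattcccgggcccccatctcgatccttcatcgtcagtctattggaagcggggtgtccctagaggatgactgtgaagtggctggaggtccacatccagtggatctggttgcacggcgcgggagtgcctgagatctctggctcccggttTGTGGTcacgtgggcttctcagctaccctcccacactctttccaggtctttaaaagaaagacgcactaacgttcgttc
Nr2f2: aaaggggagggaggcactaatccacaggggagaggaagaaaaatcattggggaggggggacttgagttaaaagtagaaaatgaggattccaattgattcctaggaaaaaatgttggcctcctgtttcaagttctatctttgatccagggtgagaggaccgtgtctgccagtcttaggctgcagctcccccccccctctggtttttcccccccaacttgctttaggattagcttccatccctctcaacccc
A set of 3 short motifs were searched on both strands of the same window, as written and as the reverse complement: the nuclear receptor half-site AGGTCA, the steroid receptor half-site AGAACA and the Runx core TGTGGT. RefSeq windows were matched for 40 receptors, all but Thra, Hnf4g, Nr3c1 and Nr5a1. The receptor half-site was present in 6 of the 40 (Nr0b1, Nr1d2, Nr1h4, Nr5a2, Rarg and Thrb), beside 13.8% of 27025 genes. The steroid half-site was present in 1 (Nr5a2), beside 16.2%, and the Runx core in 4 (Esr2, Nr0b1, Nr1h4 and Nr2e3), beside 14.2%. Of the 4 printed windows, that of Esr2 holds 1 match and the others none.

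RXR genes encode the shared dimer partners. Rxrb rose between the ends of the series while Rxra was not called. Rxrb measured 16.1 and 18.1 RPKM in subconfluent cells, 23.3 and 32.9 in confluent cells, 24.3 and 26.0 at 24 h, 29.7 and 28.7 at 14 d and 31.5 and 33.8 at 21 d. Both subconfluent values lay below all others, and the confluent B value overlapped the 21 d values. Its log2FC in 21 d against subconfluent was 1.05 (SE 0.16, adjusted p = 0.0012). Rxra measured 28.2 and 28.7 RPKM in subconfluent cells, 32.4 and 29.5 in confluent cells, 23.2 and 29.5 at 24 h, 23.4 and 23.3 at 14 d and 25.8 and 25.0 at 21 d. Its log2FC in 21 d against subconfluent was -0.05 (SE 0.10, adjusted p = 0.73).

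Among the hormone receptors that pair with RXR, the thyroid hormone receptors rose and the vitamin D receptor fell. Thra measured 18.4 and 19.4 RPKM in subconfluent cells, 27.7 and 27.9 in confluent cells, 21.4 and 32.9 at 24 h, 34.8 and 35.3 at 14 d and 55.2 and 55.2 at 21 d. Outside the split 24 h pair, each stage lay above the one before it without overlap, and the log2FC in 21 d against subconfluent was 1.66 (SE 0.16, adjusted p = 0.00012). Of its exon bases 5.70% overlap a gene on the opposite strand. Thrb, the less abundant thyroid receptor, measured 2.03 and 1.98 RPKM in subconfluent cells, 1.99 and 1.84 in confluent cells, 1.78 and 2.35 at 24 h, 3.17 and 3.08 at 14 d and 3.06 and 2.77 at 21 d. The 14 d and 21 d values all lay above the earlier ones, and the log2FC was 0.93 in 14 d against confluent (SE 0.12, adjusted p = 0.0015) and 0.66 in 21 d against subconfluent (SE 0.12, adjusted p = 0.0032).

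Vdr encodes the receptor for the active form of vitamin D, a known regulator of mineral handling and of osteocalcin. It measured 15.2 and 14.5 RPKM in subconfluent cells, 10.1 and 8.34 in confluent cells, 5.07 and 7.69 at 24 h, 8.85 and 9.72 at 14 d and 5.55 and 5.26 at 21 d. The level did not run in 1 direction: it was highest in subconfluent cells, and the 14 d pair lay above both the 24 h and the 21 d pair. The fall from 14 d to 21 d had a log2FC of -0.86 (SE 0.17, adjusted p = 0.021), and the rise from 24 h to 14 d one of 0.68 (SE 0.17, adjusted p = 0.035). The call for the rise was kept in 7 of 20 alternative fits, and that for the fall from 14 d in 14 of 21, and either was lost without any 1 library of 14 d or 21 d. From subconfluent to 21 d it was -1.34 (SE 0.17, adjusted p = 0.00053).

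Retinoic acid receptors were led by Rarg at every stage. Rarg measured 30.1 and 29.9 RPKM in subconfluent cells, 39.8 and 37.5 in confluent cells, 33.9 and 40.6 at 24 h, 34.5 and 34.3 at 14 d and 33.9 and 34.5 at 21 d. Its mean RPKM was highest in confluent cells, although the highest single value was that of 24 h replicate B. The edgeR fit, which scales the libraries further, did not place 14 d below confluent cells (log2FC 0.05, SE 0.08, adjusted p = 0.69). The rise of Rarg between the ends was small (log2FC 0.31, SE 0.08, adjusted p = 0.019). This call was kept in 13 of 21 alternative fits. Rara measured 15.0 and 14.0 RPKM in subconfluent cells, 15.0 and 13.5 in confluent cells, 12.5 and 12.7 at 24 h, 15.6 and 15.2 at 14 d and 19.9 and 20.4 at 21 d. Its 21 d values lay above all others, with a log2FC of 0.59 against subconfluent (SE 0.08, adjusted p = 0.00086). Rarb, itself a retinoic acid target, had 5 to 23 counts per sample and was not called, and 34.1% of its exon bases overlap Top2b on the opposite strand.

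The lipid-sensing receptors held the strongest rise. Nr1h3 (LXR alpha) measured 0.217 and 0.200 RPKM in subconfluent cells, 0.304 and 0.253 in confluent cells, 0.623 and 0.487 at 24 h, 1.39 and 1.33 at 14 d and 2.68 and 2.73 at 21 d. The 5 stages did not overlap, and each stood higher than the one before. These values rest on 15 to 527 counts. Its log2FC was 1.10 in 24 h against confluent (SE 0.21, adjusted p = 0.028), 1.41 in 14 d against 24 h (SE 0.20, adjusted p = 0.0050), 0.92 in 21 d against 14 d (SE 0.20, adjusted p = 0.029) and 3.80 in 21 d against subconfluent (SE 0.22, adjusted p = 1.6e-05). The call at 24 h was kept in 10 of 20 alternative fits, the one at 14 d in 19 of 20 and the one from 14 d to 21 d in 14 of 21. The last was lost without any 1 of the 14 d or 21 d libraries. The comparisons of 24 h with confluent and of 21 d with 14 d each lie within 1 set of index sequences.

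Its partner isotype Nr1h2 (LXR beta) was far more abundant. It measured 17.2 and 19.1 RPKM in subconfluent cells, 21.2 and 23.1 in confluent cells, 19.8 and 23.2 at 24 h, 25.0 and 24.7 at 14 d and 25.5 and 26.2 at 21 d. The 14 d and 21 d values lay above all earlier ones, and the log2FC in 21 d against subconfluent was 0.63 (SE 0.09, adjusted p = 0.00092). Nr1h4, the bile acid receptor FXR, ranged from 0.322 to 0.729 RPKM, and Ppard, the fatty acid receptor PPAR delta, from 8.78 to 13.0 RPKM. Neither was called in any comparison, and for Ppard the log2FC in 21 d against subconfluent was 0.01 (SE 0.14).

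Rora and Nr1d2 act on the same DNA elements, the first as an activator and the second (REV-ERB beta) as a heme-binding repressor of the circadian system. They changed in opposite directions between the ends of the series. Rora measured 0.742 and 0.622 RPKM in subconfluent cells, 0.748 and 0.721 in confluent cells, 0.667 and 1.11 at 24 h, 1.72 and 1.70 at 14 d and 2.06 and 2.04 at 21 d. The 14 d and 21 d values lay above all earlier ones, with a log2FC of 1.44 in 14 d against confluent (SE 0.20, adjusted p = 0.0018). Nr1d2 measured 6.20 and 6.07 RPKM in subconfluent cells, 4.47 and 3.91 in confluent cells, 1.69 and 2.05 at 24 h, 2.73 and 2.47 at 14 d and 3.48 and 3.51 at 21 d. No 2 stages overlapped, and the lowest pair was that at 24 h. Nr1d2 was lower in confluent than in subconfluent cells (log2FC -0.58, SE 0.10, adjusted p = 0.032). This call was kept in 8 of 21 alternative fits and lost without any 1 subconfluent, confluent, 14 d or 21 d library. Nr1d2 fell to 24 h (-1.08, SE 0.11, adjusted p = 0.0031), a call kept in 19 of 20. It rose from 24 h to 14 d (0.61, SE 0.11, adjusted p = 0.010), kept in 14 of 20. The hour of collection is not in the labels.

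**Figure D3:**
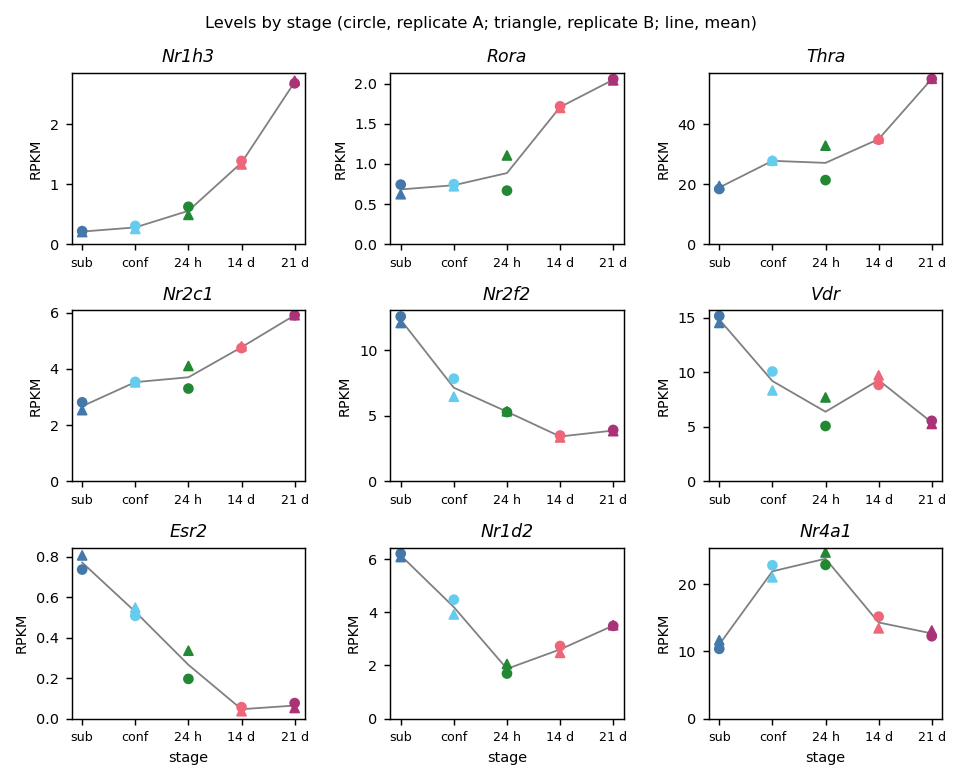
RPKM of 9 receptor genes by stage, with replicate A as a circle, replicate B as a triangle and a line through the stage means; each panel has its own linear axis from 0. Nr1h3, Rora, Thra and Nr2c1 are highest at 21 d, Nr2f2, Vdr, Esr2 and Nr1d2 are highest in subconfluent cells, and Nr4a1 is highest in confluent and 24 h cells.

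Among the orphan receptors of the COUP-TF family, Nr2f2 (COUP-TFII), a known regulator of mesenchymal fate, fell early. It measured 12.6 and 12.1 RPKM in subconfluent cells, 7.83 and 6.45 in confluent cells, 5.28 and 5.34 at 24 h, 3.49 and 3.34 at 14 d and 3.92 and 3.82 at 21 d. No 2 stages overlapped, and the 14 d pair was the lowest. The log2FC was -0.82 in confluent against subconfluent (SE 0.10, adjusted p = 0.0087), -0.51 in 14 d against 24 h (SE 0.10, adjusted p = 0.017) and -1.55 in 21 d against subconfluent (SE 0.11, adjusted p = 2.7e-05). Nr2f1 (COUP-TFI) measured 9.80 and 9.66 RPKM in subconfluent cells, 10.3 and 9.39 in confluent cells, 12.2 and 10.4 at 24 h, 6.73 and 7.45 at 14 d and 6.91 and 6.82 at 21 d. Its 14 d and 21 d values lay below all earlier ones. The log2FC was -0.55 in 14 d against 24 h (SE 0.13, adjusted p = 0.026) and -0.39 in 21 d against subconfluent (SE 0.13, adjusted p = 0.036). The latter call was kept in 9 of 21 alternative fits.

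The testicular receptors, orphan repressors named for the tissue they were cloned from, diverged. Nr2c1 (TR2) measured 2.81 and 2.53 RPKM in subconfluent cells, 3.54 and 3.52 in confluent cells, 3.30 and 4.10 at 24 h, 4.74 and 4.80 at 14 d and 5.91 and 5.91 at 21 d. Confluent and 24 h values overlapped and the other stages did not, and the log2FC in 21 d against subconfluent was 1.26 (SE 0.10, adjusted p = 6.2e-05). Nr2c2 (TR4) ranged from 7.91 to 10.3 RPKM with a log2FC of -0.03 (SE 0.10, adjusted p = 0.86). Of the exon bases of Nr2c2 30.7% overlap Mrps25 on the opposite strand. Nr6a1, the germ cell nuclear factor, lay between 0.449 and 0.723 RPKM up to 14 d and at 0.941 and 0.902 at 21 d, and rose by 1.03 on the log2 scale against subconfluent (SE 0.18, adjusted p = 0.0027).

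The estrogen receptors were both below 1 RPKM and moved apart. Esr2 measured 0.737 and 0.807 RPKM in subconfluent cells, 0.508 and 0.549 in confluent cells, 0.196 and 0.335 at 24 h, 0.0563 and 0.0361 at 14 d and 0.0766 and 0.0521 at 21 d. The 14 d and 21 d values overlapped and lay below all others, on 4 to 17 counts per sample, beside 56 to 255 counts at the earlier stages. Its log2FC was -2.33 in 14 d against 24 h (SE 0.35, adjusted p = 0.0062), -3.24 in 14 d against confluent (SE 0.36, adjusted p = 0.00074) and -3.49 in 21 d against subconfluent (SE 0.36, adjusted p = 0.00018). The call for 24 h against confluent was not made (log2FC -0.91, SE 0.32, adjusted p = 0.15). Esr1 lay between 0.426 and 0.584 RPKM in the 6 libraries up to 24 h and between 0.728 and 0.801 in the 4 later ones, and its log2FC in 21 d against subconfluent was 0.81 (SE 0.15, adjusted p = 0.0037).

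Esrra, the orphan estrogen-related receptor alpha and a regulator of mitochondrial genes, had its highest stage mean in confluent cells. It measured 13.2 and 15.4 RPKM in subconfluent cells, 23.0 and 32.1 in confluent cells, 16.7 and 17.2 at 24 h, 15.9 and 16.4 at 14 d and 14.8 and 16.7 at 21 d. The confluent pair lay above all others, and its 2 replicates lay further apart than those of any other stage. The log2FC was 0.92 in confluent against subconfluent (SE 0.17, adjusted p = 0.033), a call kept in 13 of 21 alternative fits. The lower level at 24 h than in confluent cells was not called (log2FC -0.61, SE 0.17, adjusted p = 0.086). In 21 d against subconfluent the log2FC was 0.26 (SE 0.17, adjusted p = 0.23), and the lower level in 14 d than in confluent cells was not called without confluent replicate B, without either 14 d library or without either 21 d library.

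The glucocorticoid receptor Nr3c1 ranged from 6.29 to 11.2 RPKM, with its lowest value in 24 h replicate A. It was not called in any of the 6 comparisons, and in 21 d against subconfluent its log2FC was 0.06 (SE 0.17, adjusted p = 0.80). Its share of the summed corticoid receptor RPKM was at least 99.8% at every stage.

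NR4A receptors are immediate early genes that need no known ligand. Nr4a1 measured 10.4 and 11.7 RPKM in subconfluent cells, 22.8 and 21.0 in confluent cells, 22.8 and 24.7 at 24 h, 15.2 and 13.4 at 14 d and 12.2 and 13.1 at 21 d. The confluent and 24 h values lay above all others, and both subconfluent values lay below all others. Its log2FC was 0.97 in confluent against subconfluent (SE 0.10, adjusted p = 0.0032) and -0.61 in 14 d against 24 h (SE 0.10, adjusted p = 0.0072). Nr4a2 ranged from 1.51 to 2.52 RPKM and was not called in any comparison. Nr4a3 ranged from 0.124 to 0.403 RPKM, with both 21 d values below all others, and fell by 1.20 on the log2 scale in 21 d against subconfluent (SE 0.30, adjusted p = 0.012).

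To place the changes in time, successive stages were compared. From subconfluent to confluent 4 receptors changed, beside 3.28% of all genes: Esrra and Nr4a1 rose (1.95% of all genes), and Nr1d2 and Nr2f2 fell (1.34%). From confluent to 24 h 2 changed, beside 5.15% of all genes, with Nr1h3 higher (3.59% of all genes) and Nr1d2 lower (1.57%). From 24 h to 14 d 13 changed, beside 17.3% of all genes. Here 9 rose (Thrb, Rara, Nr1d2, Rora, Nr1h2, Nr1h3, Vdr, Nr2c1 and Esr1), beside 9.08% of all genes, and 4 fell (Nr2f1, Nr2f2, Esr2 and Nr4a1), beside 8.21%. From 14 d to 21 d 2 changed, beside 9.72% of all genes, with Nr1h3 higher (3.77% of all genes) and Vdr lower (5.95%). Past 2-fold the successive steps gave 0, 2 (Nr1h3 and Nr1d2), 3 (Rora, Nr1h3 and Esr2) and 0 receptors, beside 1.43%, 2.13%, 5.98% and 3.97% of all genes, where edgeR gave 11, 8, 14 and 8 receptors at an unadjusted p under 0.05. The 24 h to 14 d step is also the step between the index pairs. Without 14 d replicate B its count was 1 and without 14 d replicate A it was 3. The count for subconfluent to confluent was 0 without subconfluent replicate A, where edgeR has 1 subconfluent library left and 9 receptors had an unadjusted p under 0.05, and 10 without the 24 h samples. That for confluent to 24 h was 10 without 24 h replicate B, and that for 14 d to 21 d was 0 when any 1 of the 4 libraries of these stages was left out, with 4 to 6 receptors at an unadjusted p under 0.05.

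Between confluent cells, the last stage in growth medium, and 14 d cells 13 receptors changed beside 32.1% of all genes. The 8 that were higher at 14 d, beside 16.9% of all genes, were Nr1h3, Rora, Thrb, Esr1, Nr2c1, Thra, Nr1h2 and Rara, with log2FCs from 2.51 down to 0.33. The 5 that were lower, beside 15.3%, were Esr2, Nr2f2, Esrra, Nr1d2 and Nr4a1, from -3.24 to -0.40. Past 2-fold there were 3 (Nr1h3, Rora and Esr2), beside 13% of all genes. The count was 6 without 14 d replicate A and 7 without 14 d replicate B. Thrb, Rora, Nr1h3, Nr2f2 and Esr2 were called in each alternative fit that tested them.

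Because the 24 h replicates stood apart, the fit was repeated without them. In 21 d against subconfluent the count was 18 again, beside 66.1% of all genes. In confluent against subconfluent it rose to 10, beside 16.5% of all genes, adding Rxrb (log2FC 0.70), Thra (0.54), Nr2c1 (0.38), Rarg (0.34) and Nr1h2 (0.27) as higher and Vdr (-0.71) as lower. In 21 d against 14 d it was 8, beside 26.6% of all genes, adding Thra (0.59), Nr6a1 (0.51), Nr1d2 (0.36), Rara (0.32), Nr3c1 (0.30) and Nr2c1 (0.24), all higher at 21 d. Both of these comparisons lie within 1 set of index sequences. In the main edgeR fit to all 10 samples, Thra (adjusted p = 0.13 and 0.059) and Nr2c1 (0.11 and 0.21) were called in neither of them. In 14 d against confluent the count without the 24 h samples was 17, beside 52.7% of all genes, adding Nr6a1 (0.37) and Nr2c2 (0.16) as higher and Nr2f1 (-0.27) and Rxra (-0.21) as lower.

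The share of a family's RPKM held by each isotype is described here without a test. Within the RXR family Rxra held 62.5% ± 1.58 (SD, n = 2) of the summed RPKM in subconfluent cells and 43.8% ± 1.77 at 21 d, and Rxrb the rest. The Rxra share of the confluent replicates lay far apart, at 58.1% and 47.3%. Within the estrogen receptors Esr2 held 62.1% ± 1.5 in subconfluent cells, 34.4% ± 4.07 at 24 h and 7.72% ± 1.47 at 21 d. The LXR alpha gene Nr1h3 went from 1.14% ± 0.144 to 9.47% ± 0.0606 of LXR RPKM, and Nr2c1 from 21.5% ± 1.04 to 40.2% ± 0.622 of testicular receptor RPKM. Nr2f2 went from 26.2% ± 3.23 to 8.89% ± 0.179 of COUP-TF RPKM, a share that also moves with the uncertain level of Nr2f6. Rara went from 32.6% ± 1.04 to 37.1% ± 0.0274 of retinoic acid receptor RPKM, with a low of 25.4% ± 2.20 at 24 h. In the thyroid receptors Thra held 90.4% ± 0.464 in subconfluent cells and 95.0% ± 0.337 at 21 d.

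**Figure D4:**
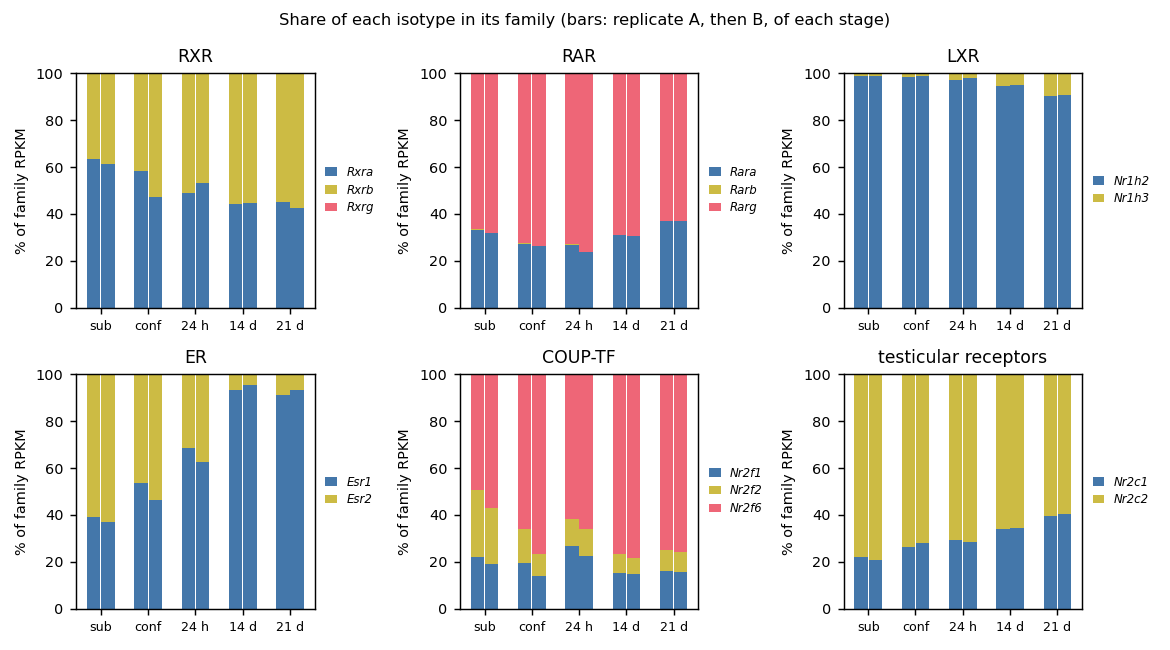
Share (%) of the summed RPKM of 6 receptor families carried by each isotype; each stage has a bar for replicate A and one for replicate B. Rxra goes from 62.5% of RXR RPKM in subconfluent cells to 43.8% at 21 d, Esr2 from 62.1% to 7.72% of estrogen receptor RPKM, and Nr2c1 from 21.5% to 40.2% of testicular receptor RPKM.

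The receptors work with coregulators, chaperones and ligand enzymes, and 9 lists of such genes and of commonly cited targets were counted in the same test, with 21 d against subconfluent given first. Over all genes 27.3% were higher and 23.5% lower in that comparison, and 16.9% and 15.3% in 14 d against confluent. Of 20 tested coactivators and corepressors 1 was higher and 5 lower, with a median log2FC of -0.10 beside 0.04 for all genes. Those with the smallest adjusted p were Pprc1 (-1.21, adjusted p = 0.00013), Ncoa7 (1.66, adjusted p = 0.00016) and Ncoa3 (-1.03, adjusted p = 0.00077). In 14 d against confluent 1 was higher and 2 lower. Of 10 chaperones and cochaperones of steroid receptors 1 was higher and 7 lower (median -0.54), and in 14 d against confluent 1 was higher and 8 lower. Stip1 (-1.23, adjusted p = 3.7e-05) and Hsp90aa1 (-1.20, adjusted p = 6.4e-05) were lower, and Fkbp5 (2.23, adjusted p = 3.5e-06) was the one that rose.

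In both lists of ligand genes more were higher than lower. These lists mix genes of synthesis, carriage and breakdown, so the counts do not say whether more ligand was made. Of 11 tested genes, from a list of 15 for retinoid supply, binding and breakdown, 7 were higher and 2 lower (median 1.01), and 5 and 2 in 14 d against confluent. Aldh1a1, which makes retinoic acid, went from 0.105 and 0.142 RPKM in subconfluent cells to 13.0 and 11.3 at 21 d (log2FC 6.79). The retinol dehydrogenase Rdh11 (-2.09) and the fatty acid and retinoic acid carrier Fabp5 (-3.60) fell. Of 19 listed enzymes and carriers for vitamin D, thyroid hormone, steroid and oxysterol ligands only 10 were tested. Of these 10, 5 were higher and 2 lower (median 1.54), with the same counts in 14 d against confluent. Ch25h, which makes an oxysterol, rose by 3.27 from a low level, to 0.678 and 0.720 RPKM, Hsd17b11, a steroid dehydrogenase, rose by 1.29, and Dio3, which inactivates thyroid hormone, fell by 0.95 on the log2 scale.

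Target lists were read as counts of genes, since each target answers to other factors too, beside the shares of all genes given above (27.3% higher and 23.5% lower, then 16.9% and 15.3%). Of 11 glucocorticoid receptor targets 9 were higher and 1 lower in both 21 d against subconfluent (median 2.23) and 14 d against confluent. Tsc22d3 went from 10.2 and 9.19 RPKM in subconfluent cells to 277.8 and 277.9 at 21 d, a log2FC of 4.96 (SE 0.14, adjusted p = 2.4e-06), Ddit4 rose by 2.88 and Fkbp5 by 2.23. No glucocorticoid is named in the labels, and Nr3c1 itself was not called. Of 8 listed vitamin D receptor targets only 5 passed the low-count filter. Of these 5, 4 were higher and 1, Vdr itself, was lower (median 2.39), and 3 were higher and none lower in 14 d against confluent. Bglap (osteocalcin) rose by 8.94, Lrp5 by 2.39 and Spp1 by 2.02, and the first and last are also osteoblast matrix genes.

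Of 8 tested retinoic acid receptor targets 5 were higher and none lower (median 1.40), and 4 and none in 14 d against confluent. Rarres2 rose by 3.43, Dhrs3 by 2.17 and Tgm2 by 1.18, and Dhrs3, Crabp2, Cyp26a1, Cyp26b1 and Stra6 also stand in the retinoid list. Of 7 tested LXR targets 4 were higher and 2 lower (median 1.09), and 4 and none in 14 d against confluent. Pltp, the phospholipid transfer protein, went from 87.7 and 95.0 RPKM to 537.7 and 521.9 (log2FC 2.65, SE 0.10, adjusted p = 3.3e-06), Mylip rose by 1.09, and Lpcat3 fell by 0.85 on the log2 scale. Of 10 PPAR alpha and delta targets 5 were higher and 3 lower (median 0.33), and 2 and 1 in 14 d against confluent, where the shares of all genes were 27.3% and 23.5%, then 16.9% and 15.3%. Pdk4, on both the PPAR and the glucocorticoid list, fell by 2.07 and Acaa2 rose by 1.03.

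**Figure D5:**
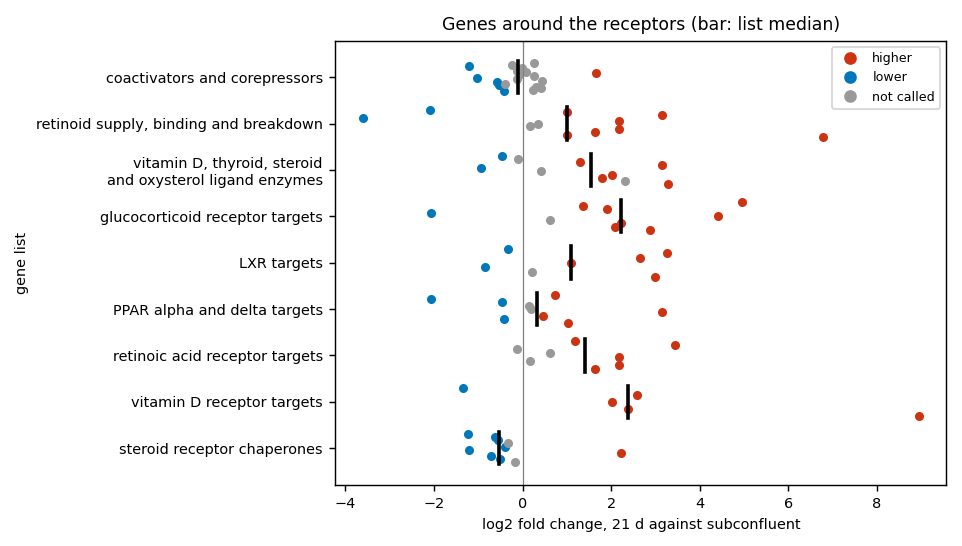
Log2FC in 21 d against subconfluent cells of the tested genes of 9 lists around the receptors; each point is a gene, red for higher and blue for lower at an adjusted p under 0.05, and the bar is the list median. Genes with a count of 0 in a subconfluent library are left out of the points and kept in the medians, which were the same with these genes at their lower bound. The medians run from -0.54 for chaperones to 2.39 for vitamin D receptor targets.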

How the data were processed

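RNA was sequenced as paired-end reads from 10 samples, 5 stages of MC3T3-E1 cells with 2 replicates each. The count table deposited by the authors holds whole counts per gene, not normalized. The authors also deposited RPKM values, made from those counts, the gene length and a number of reads lower than the summed counts. The summed counts were 1.44 (subconfluent B) to 1.60 (24 h A) times this number. RPKM also carries no TMM factor, so its order between stages can differ from a log2FC. Mean Ppard, for example, was 12.5 RPKM in confluent cells and 10.9 at 14 d, with a log2FC of 0.01 (SE 0.14). The submitters' processing notes name FastQC, TopHat2 2.0.9, R 3.0.1 and build mm10, and the counter, annotation and strand handling are not given in the sources used here. The libraries 14 d A and 21 d B were sequenced in more than 1 lane, and the merged column was used. Over 25 receptors with at least 50 counts, this column differed from the lanes added together by up to 6.29% in 14 d A (median 0.566%) and 5.88% in 21 d B (median 0.599%), for a reason not given in the sources used here. The RPKM table lacks 18 complete rows of the count table, none of them a receptor. Total counts per sample ran from 44736156 to 162939333, and intervals or limits from them cover counting error only.

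Identifiers were matched to GENCODE vM21 on GRCm38. Exon overlaps were taken over all exons of that annotation, 2983 bases for Nr2f6, where the count table has a gene length of 1908 bases. The share of the counted bases that overlaps another gene is therefore not known. The test was run in R 4.3.3 with edgeR 4.0.16: filterByExpr (20808 genes kept), TMM, and 1 quasi-likelihood fit of 5 stage groups to all 10 samples, with an F test over the 5 stages and 6 comparisons, each Benjamini-Hochberg adjusted. A gene was called at an adjusted p under 0.05. The SE of a log2FC is its size over the root of its F statistic. The script was tested on simulated data. The study's methods name no count test for these libraries. Alternatives were DESeq2 1.42.0, limma 3.58.1 on log2 of RPKM plus 1 or 0.1, other filters, scalings and thresholds, a replicate block, fits to the 2 stages compared, and leaving out samples. Promoter windows were taken from RefSeq (GRCm38.p6).

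Every receptor is named. Values in all samples are given for receptors with an adjusted p under 0.05 over the 5 stages and a mean above 1 RPKM, for the 5 highest in mean RPKM and, chosen after its values were seen, for Esr2. Of each pathway list the 3 genes with the smallest adjusted p in 21 d against subconfluent or 14 d against confluent are named. Of the genes this rule selects, 1 is not reported here. The receptors and the lists were chosen with earlier results of these data known.

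Whether the letters A and B pair the samples was checked by correlating the A minus B deviations of all genes between stages. The correlations ran from -0.33 to 0.32, so the letters were not taken as pairs.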

Additional observations from a re-analysis of the deposited data

How the results depend on the processing

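With 2 replicates a stage, small changes are near the limit of what the test can call, and Esr2 at 14 d and 21 d rests on at most 17 counts. Of 52 receptor calls over the 6 comparisons, 19 held in every alternative fit, 14 of them for 21 d against subconfluent and 5 for 14 d against confluent cells, and none reversed. The counts of changed receptors are given in the order 5 stages, confluent against subconfluent, 24 h against confluent, 14 d against 24 h, 21 d against 14 d, 14 d against confluent and 21 d against subconfluent, and were 18, 4, 2, 13, 2, 13 and 18. With a replicate block they were 18, 3, 2, 12, 2, 13 and 18. Leaving out single libraries gave 15 to 22, 0 to 10, 1 to 10, 1 to 17, 0 to 8, 6 to 17 and 14 to 18. The 0 in confluent against subconfluent came without subconfluent replicate A (9 receptors at an unadjusted p under 0.05 in edgeR), and that count was 1 without subconfluent replicate B or confluent replicate B, 2 when any 1 of the 14 d or 21 d libraries was left out, and 10 and 9 without 24 h replicate A and B. The count for 24 h against confluent was 10 without 24 h replicate B, 4 without 24 h replicate A and 1 when any 1 of the others was left out. That for 21 d against 14 d was 0 when any 1 of the 14 d or 21 d libraries was left out (4 to 6 at an unadjusted p under 0.05), 1 without either subconfluent library, and 7 and 8 without 24 h replicate A and B. In these fits a stage has 1 library left, which is assumed to vary like the other groups. Past 2-fold the counts were 11, 0, 2, 3, 0, 3 and 10, and at an adjusted p under 0.01 they were 2, 1, 4, 0 and 7 in the second to the sixth of these. Beside those counts of 0, edgeR gave 11 and 8 receptors at an unadjusted p under 0.05 in confluent against subconfluent and 21 d against 14 d. DESeq2 called 10, 4 and 5 in confluent against subconfluent, 24 h against confluent and 21 d against 14 d, and without the 24 h samples the first and last were 10 and 8. With no filter 24 h against confluent gave 1. Fits to the 2 stages compared gave 10 in 21 d against 14 d, and 0 in both 24 h against confluent and 14 d against 24 h (4 and 12 at an unadjusted p under 0.05). A minimum of 10 counts in every sample gave 4 in 21 d against 14 d, and so did upper-quartile factors, a scaling added after seeing the data. Library size alone, also added then, gave 7 in 14 d against 24 h, and limma on log2(RPKM + 0.1) gave 8. These scalings moved the log2FC median over all genes by up to -0.20 (library size alone, 14 d against confluent) and 0.17 (upper-quartile, 21 d against subconfluent), and no receptor call changed direction. From counts with no length correction the shares in subconfluent cells and at 21 d were 71.5% and 54% for Rxra, 0.884% and 7.48% for Nr1h3, 10.1% and 21.5% for Nr2c1, 28.8% and 2.02% for Esr2, 45.5% and 19.2% for Nr2f2, and 33.9% and 38.5% for Rara. The cause of these changes was not tested, except that shares from counts differ by gene length.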
